A study of Drosophila melanogaster with 3 samples.

Results

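Kr-h1, Met and gce were taken by name as the juvenile hormone receptor genes and their main response gene, and they make up 3 of the 13945 protein-coding genes of the annotation. Sox14 occupancy at them was read from 1 group of 3 biological replicates of chromatin immunoprecipitation and sequencing (ChIP-seq), each 1 library, from whole Drosophila melanogaster at the white prepupa stage with males and females pooled. The animals came from 1 transgenic line that stably expresses Sox14 with GFP at its C terminus, and an anti-GFP antibody was used, so the values describe the tagged protein, averaged over every tissue of the animal. No input or mock library, other stage or untagged line was analysed here, and the peak lists give no read counts, so the depth behind each value is unknown. A summit, the base of highest signal in a peak, was counted for a gene when it lay in the gene's span or within 5 kb of either end.

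Methoprene-tolerant (Met) and germ cell-expressed bHLH-PAS (gce) encode paralogous basic helix-loop-helix PAS proteins that bind juvenile hormone inside the cell and activate transcription with the coactivator Taiman. Krüppel homolog 1 (Kr-h1) encodes a zinc finger protein that the liganded receptors induce, and it restrains metamorphosis, among other ways by repressing Eip93F, the determinant of adult development. Sox14, an HMG box protein induced by the steroid ecdysone, is itself required for metamorphosis, among other things for the pruning of neurons.

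Each summit base with the 50 bases on either side is shown for the summit at the first start site of Kr-h1, for the strongest summits in each window, for the Kr-h1 window summit with the most matched words, and for the gce summit between that gene's first start sites. The stretches are printed 5′ to 3′ on the plus strand of dm6, from the RefSeq sequence of that build, and capitals mark the words described further on on either strand.
Kr-h1 first start, chr2L:6082439-6082539: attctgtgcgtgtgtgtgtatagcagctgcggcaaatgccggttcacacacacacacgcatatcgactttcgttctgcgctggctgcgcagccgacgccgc
Kr-h1 intron, chr2L:6088452-6088552: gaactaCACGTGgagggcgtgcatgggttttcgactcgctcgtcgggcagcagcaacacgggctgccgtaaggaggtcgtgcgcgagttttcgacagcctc
Upstream of CG9175, chr2L:6099513-6099613: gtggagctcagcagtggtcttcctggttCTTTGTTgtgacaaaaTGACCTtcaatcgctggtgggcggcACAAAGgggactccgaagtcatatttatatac
Ptp10D intron in the Met window, chrX:11623044-11623144: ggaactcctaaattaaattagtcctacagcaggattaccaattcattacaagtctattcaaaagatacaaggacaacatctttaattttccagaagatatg
gce between starts, chrX:15298395-15298495: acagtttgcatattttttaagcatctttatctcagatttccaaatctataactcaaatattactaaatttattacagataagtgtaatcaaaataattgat
Top1 in the gce window, chrX:15323371-15323471: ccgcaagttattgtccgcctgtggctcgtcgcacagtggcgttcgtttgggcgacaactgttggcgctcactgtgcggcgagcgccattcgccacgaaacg
The stretches at Kr-h1 and in Top1 were richer in G and C than those at Met and between the gce starts. The GC content was 58.4% at the Kr-h1 start, 62.4% in the Kr-h1 intron, 48.5% upstream of CG9175 and 62.4% in Top1, against 31.7% in the Met window and 21.8% between the gce starts. Over all 9316 summits of the optimal list the median was 34.7%, with quartiles of 28.7% and 43.6%.

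Sox14 summits lay in the windows of all 3 genes, but in different places: at the first promoter, in the long intron and beyond the 3′ end of Kr-h1, only beyond the 3′ end of Met, and mostly inside gce. The optimal list, the shorter of the deposited sets, held 6 summits in the Kr-h1 window, 2 in the Met window and 7 in the gce window, 15 in all. At least 1 optimal summit was present in the windows of 60.7% of all protein-coding genes. At least as many as Kr-h1 were found for 4.11% of genes, at least as many as Met for 38.5% and at least as many as gce for 2.64%. The windows differed in length and were 23896 bp for Kr-h1, 15157 bp for Met and 31309 bp for gce, against a median of 12166 bp over all genes. Per 10 kb of window there were 2.51 optimal summits for Kr-h1, 1.32 for Met and 2.24 for gce, against 0.696 over the chromosome arms and a median of 0.772 over all gene windows. The members' counts of optimal summits stand beside those of all genes in the histogram.

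**Figure D1:**
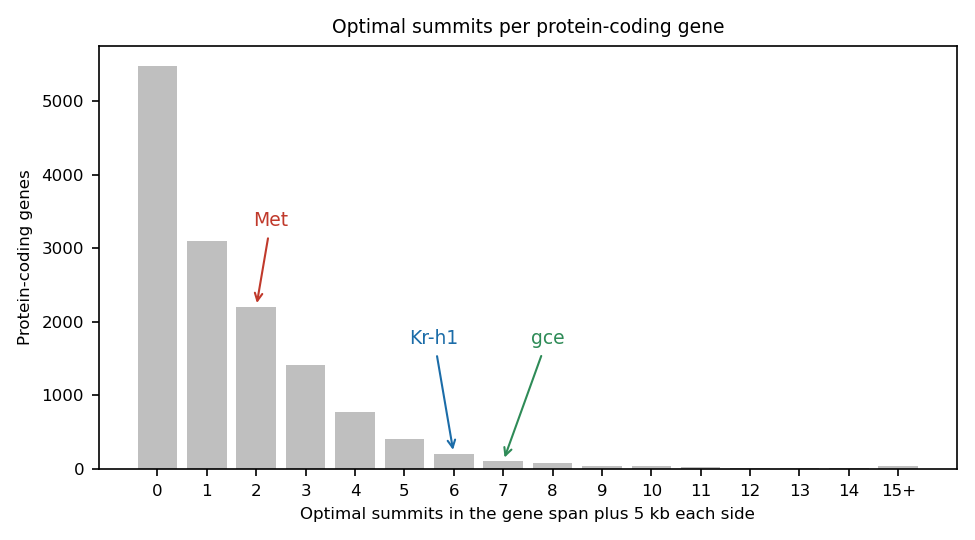
Number of protein-coding genes (vertical axis) by number of optimal summits in the gene span plus 5 kb on each side (horizontal axis). Met with 2 summits sits among 38.5% of genes that have at least as many, while 6 or more, as at Kr-h1, occurred at 4.11% and 7 or more, as at gce, at 2.64%.

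Most of these summits were outside the genes themselves. Of the 15, 6 lay within the span of a member, 1 in Kr-h1, 0 in Met and 5 in gce, where 18.6% of all protein-coding genes had at least 1 optimal summit within their span. For 5 of the 15 the nearest protein-coding start site was that of the member itself, 3 for Kr-h1, 0 for Met and 2 for gce. By that measure 32.6% of all genes had at least 1 summit of their own. The strongest Kr-h1 summit is among its 3, although the start nearest to it is shared with CG45075. A single summit of the 15, upstream of Kr-h1, was within 500 bp of a member's start site, and 5 were within 500 bp of some protein-coding start. The share of all optimal summits within 500 bp of a start was not counted, so these 2 counts describe the windows only.

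**Figure D2:**
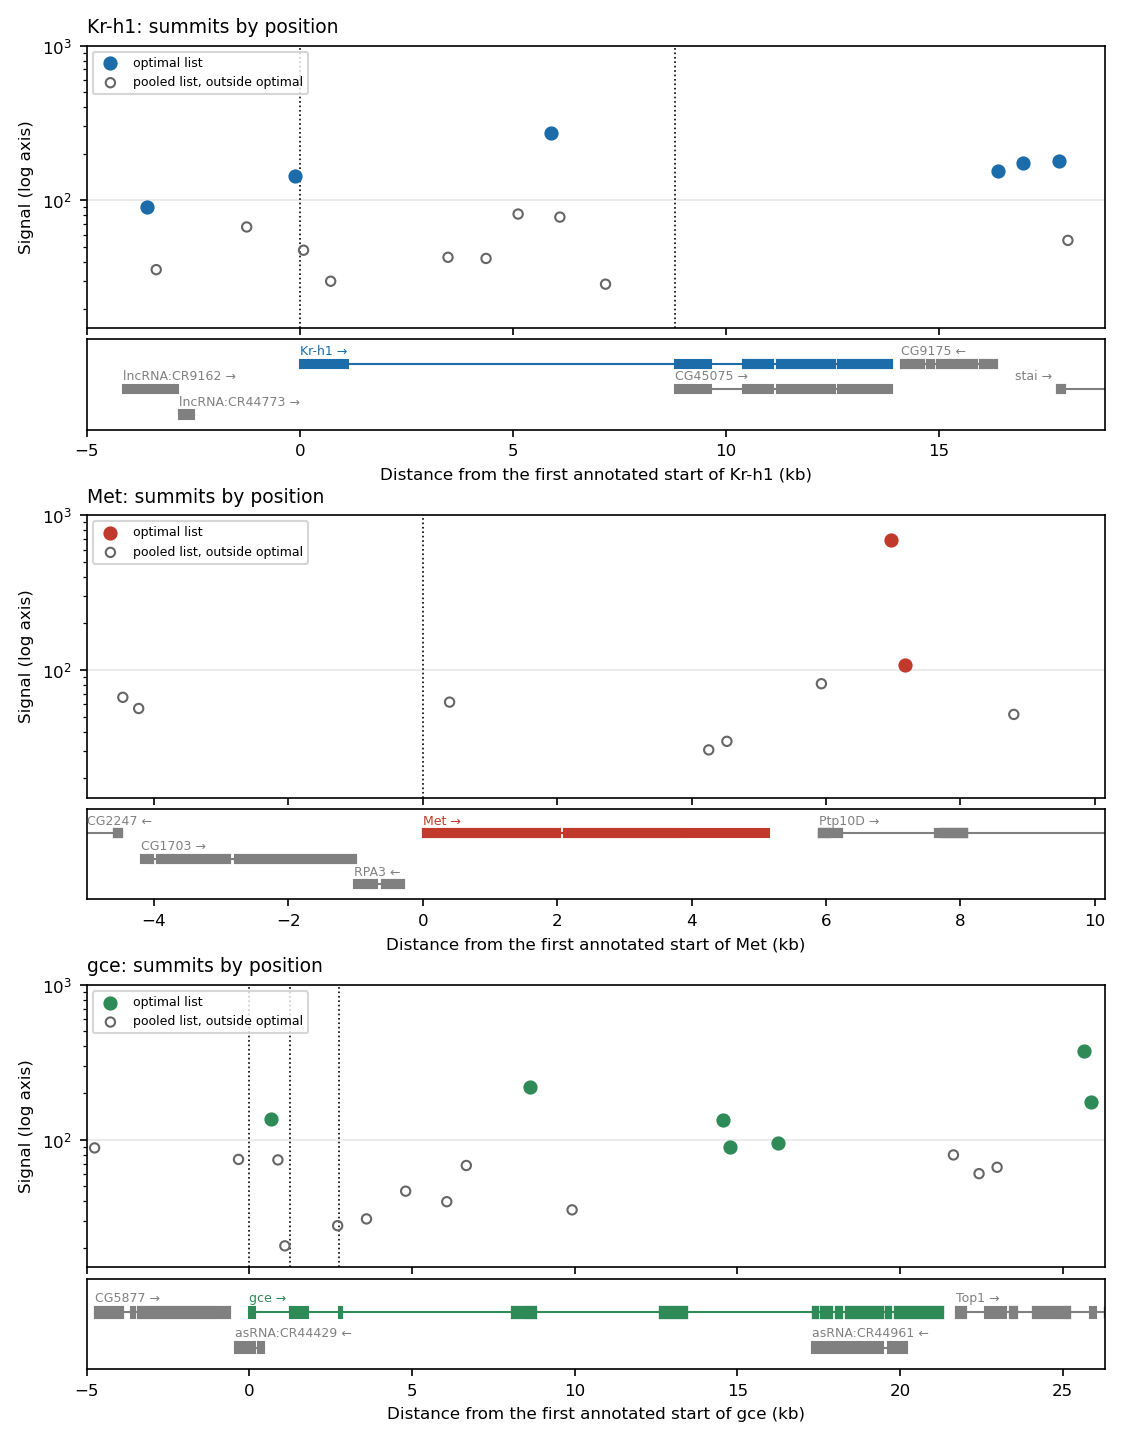
Signal of each summit (vertical axis, log scale, the authors' signal value in the pooled list) by distance from the first annotated start of Kr-h1, Met and gce in kb, with filled points for optimal summits, open points for summits of the pooled list outside the optimal set, dotted lines at the member's start sites, and gene models with exons as boxes below. The 2 filled points in the Met window lie in Ptp10D, while 5 of the 7 in the gce window lie in gce itself.

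Kr-h1 (FBgn0266450) lies on the plus strand of chromosome arm 2L from 6082603 to 6096498 and has 2 annotated start sites, 8809 bp apart, the second of which, at 6091412, it shares with CG45075. Sox14 was found at the first of these starts and not near the second. An optimal summit at 6082489 lay 114 bp upstream of the first start with a signal of 142.8, rank 5511 of the 9316 optimal peaks, where rank 1 is the strongest. In the replicates this summit ranked 5458, 5700 and 8236 with signals of 49.4, 49.6 and 36.8. All 3 replicates thus held it among their strongest 9316 peaks, in the middle or lower part of that range.

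The strongest Kr-h1 summit was in the long intron between the starts, at 6088502, which is 5899 bp past the first start and 2910 bp before the second. Its signal was 272.6 and its pooled rank 2133. In replicates 1, 2 and 3 it ranked 5700, 2303 and 1078, with signals of 47.7, 89.2 and 138. This was the least even of the Kr-h1 summits found in every replicate, being weakest in replicate 1 and strongest in replicate 3. The SD of its log10 rank over the 3 replicates was 0.362, against a median of 0.141 over the 8100 optimal summits found in every replicate, and 4.59% of those had an SD at least as large. Signals are on the scale of each list, whose medians were 17.8, 20.9 and 19.8 in replicates 1, 2 and 3.

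No summit marked the second Kr-h1 start. The nearest one in the pooled relaxed list, the deposited set of 30000 peaks from which the optimal peaks are the strongest 9316, was 1637 bp away, and the nearest in replicates 1, 2 and 3 were 1200, 2640 and 1805 bp away. From 6090212 to 6097138, a stretch of 6926 bp with that start and every exon of Kr-h1 but the first in it, none of the pooled list and the 3 replicate lists had a summit. For comparison, the longest such stretch was 3924 bp in the Met window and 4542 bp in the gce window.

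A weak optimal summit lay upstream, at 6079029 in the exon of lncRNA:CR9162, 3574 bp before the first Kr-h1 start. Its signal of 90.7, rank 9216, was close to the lowest in the optimal list, 89.8. It ranked 10827 in replicate 1 and 6307 in replicate 2, and in replicate 3 the nearest summit was 135 bp away, beyond the 100 bp taken as shared. Among protein-coding starts the nearest to this summit was still that of Kr-h1.

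The other 3 optimal summits of the Kr-h1 window were beyond its 3′ end, around the starts of CG9175 and of stai, which encodes the microtubule regulator stathmin. They lay 18 bp upstream of the start of CG9175 at 6098984, 597 bp upstream of it at 6099563, and 40 bp past the start of stai at 6100417. Their signals were 154.5, 173.3 and 178.4, between those of the promoter and the intron summit of Kr-h1. The first was even across replicates, with ranks of 5818, 5167 and 5628. The other two were strongest in replicate 2, with ranks of 6397, 2655 and 5581 upstream of CG9175 and of 5279, 2584 and 5776 at stai.

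Met (FBgn0002723) lies on the plus strand of the X chromosome from 11616124 to 11621280 with 1 annotated start site, and no optimal summit fell within it. In the pooled relaxed list its span held 3 summits, at 11616524 in the 5′ UTR, 400 bp past the start, with a signal of 62.0 and rank 13002, and 2 in the 3′ UTR with signals of 30.5 and 34.6. The summit near the start was uneven. Replicate 2 had it at rank 8436, within its strongest 9316 peaks, replicate 3 had one 97 bp away at rank 16469, and the nearest in replicate 1 was 155 bp away at rank 21971. In the relaxed lists as deposited, 45.6% of the pooled peaks and 40.7%, 46.4% and 43.3% of the peaks in replicates 1, 2 and 3 had a q value under 0.01, so these lists hold many weak peaks.

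The strongest summit in any of the 3 windows was in that of Met but in an intron of its downstream neighbour Ptp10D, a receptor protein tyrosine phosphatase gene that starts 735 bp after Met ends. It lay at 11623094, 1079 bp past the Ptp10D start and 1814 bp past the end of Met, with a signal of 691.6 and pooled rank 353. It ranked 349, 379 and 396 in the replicates with signals of 245.2, 220.2 and 219.5. These ranks were close together, with an SD of 0.0279 on the log10 scale, and 3% of the optimal summits found in every replicate had an SD as small or smaller. The 2nd optimal summit of the window, at 11623297 and 203 bp from the strongest, had a signal of 107.9 and ranked 8478 and 7483 in replicates 2 and 3. Replicate 1 held no separate summit for it, the nearest being the strong one 189 bp away. Near the Ptp10D start the pooled relaxed list had a summit at 11622056 with a signal of 81.5, rank 10220, that was found in all 3 replicates and not among the optimal peaks.

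gce (FBgn0261703) lies on the plus strand of the X chromosome from 15297766 to 15319074 and has 3 annotated start sites, at 15297766, 15299009 and 15300509. Its strongest summit within the gene was at 15306382 in a 5′ UTR exon, 5873 bp past the third start. It had a signal of 218.5 and rank 3036, and it ranked 4004, 3142 and 3811 in the replicates with signals of 62.3, 73.9 and 66.6. This was the one summit inside gce that all 3 replicates placed among their strongest 9316 peaks. The SD of its log10 rank was 0.0556, below the median over the optimal list.

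Near the gce starts the replicates placed the optimal summit differently. The optimal summit at 15298445, in an intron 679 bp past the first start and 564 bp before the second, had a signal of 135.0 and rank 5911. Replicates 2 and 3 had it within 100 bp, at ranks 10223 and 9370, just outside their strongest 9316. The nearest summit of replicate 1 was 123 bp away at 15298568 and was stronger, with rank 2417 and a signal of 87.5. Pooled relaxed summits outside the optimal list lay 333, 151 and 29 bp from the gce start sites, in order along the gene. They ranked 11081, 29232 and 23893 of 30000, with −log10 q values of 2.85, 0.232 and 0.501. The latter 2 thus fell short of q under 0.01, so they are no evidence of a peak at those starts. The one 333 bp from the first start passed that limit and was found in all 3 replicates. There it was 3, 40 and 2 bp away in replicates 1, 2 and 3, at ranks 11915, 13680 and 16856, outside their strongest 9316.

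The remaining 3 optimal summits inside gce were in introns of its 3′ part and were weak. At 15312323 the signal was 134.6 and the ranks were 4304, 14637 and 4511, so replicate 2 stood apart. At 15312534, 211 bp further on, the signal was 90.1, and the summit was found in replicates 1 and 3 but not within 100 bp in replicate 2. At 15314020 the signal was 95.3, with ranks of 7845, 9510 and 14548. The nearest protein-coding start to each of these was that of Top1, 7156, 6945 and 5459 bp downstream. Over genes of every kind, the start of the antisense RNA gene asRNA:CR44961 was closer, 5644, 5433 and 3947 bp away.

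The strongest summit in the gce window was not in gce. It lay with a weaker one in Top1, the gene of DNA topoisomerase I, which begins 405 bp after gce ends, and the pair sat 170 bp before and 30 bp past a start site inside that gene. The first, at 15323421, had a signal of 372.4 and rank 1241, with ranks of 1280, 1135 and 1684 and signals of 128.2, 131.2 and 108.1 in the replicates. The other, at 15323621, had a signal of 174.9, below the 218.5 of the strongest summit inside gce, and ranks of 5390, 3270 and 12338. The stronger one was found at a similar rank in each replicate, and the weaker one was lowest in replicate 3.

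**Figure D3:**
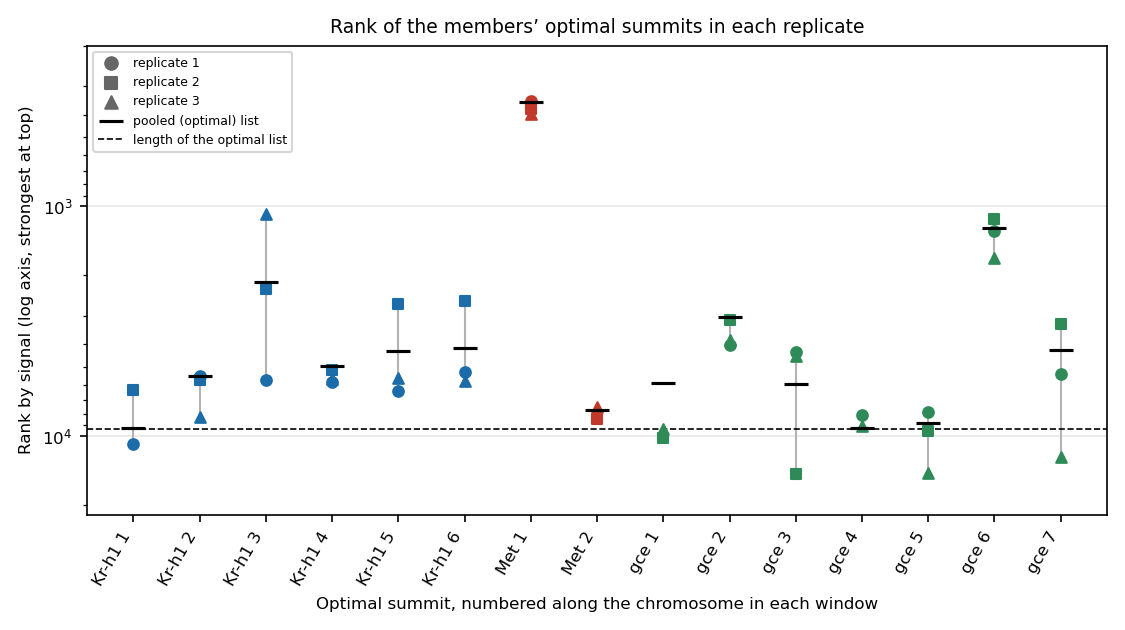
Rank by signal (vertical axis, log scale, strongest at the top) of the 15 optimal summits of the 3 windows in replicates 1, 2 and 3 (circles, squares and triangles) and in the pooled list (bars), numbered along the chromosome, with a dashed line at the length of the optimal list, 9316, and no point where a replicate had no summit within 100 bp. The ranks of the strongest Met window summit lie between 349 and 396, while those of the Kr-h1 intron summit run from 1078 to 5700.

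Across the replicates, 11 of the 15 optimal summits were found within 100 bp in all 3, which was the case for 86.9% of all optimal summits. By gene these were 5 of 6 for Kr-h1, 1 of 2 for Met and 5 of 7 for gce. Among the strongest 9316 peaks of every replicate were 8 of the 15, against 58.6% of all optimal summits, with 5 for Kr-h1, 1 for Met and 2 for gce. Matched replicate summits were a median of 22 bp and at most 76 bp from the pooled one, over 41 matches. In 3 pairs, which were 203, 211 and 200 bp apart, the peaks overlapped each other, so that 6 of the 15 were not separate regions, and 12.5% of all optimal peaks overlapped another. In the pooled relaxed list the windows held 45 summits, 16 for Kr-h1, 9 for Met and 20 for gce. Of these, 30 were not in the optimal list, as was the case for 20684 of all 30000 pooled peaks. Found in all 3 replicates were 20 of the 45, a share that was not counted over the whole pooled list.

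The order of the 3 genes by their best-ranked summit depended on whether the neighbours were counted. With 5 kb on each side, the best rank in replicates 1, 2 and 3 was 349, 379 and 396 for Met, 1280, 1135 and 1684 for gce, and 5279, 2303 and 1078 for Kr-h1. The best-ranked summit of Kr-h1 was the one at stai in replicate 1 and the intron one in replicates 2 and 3. Its SD and tests thus mix sites, while Met and gce each kept the same site. The values of Met stood apart from the others, and those of gce and Kr-h1 overlapped. The mean log10 rank was 2.57 ± 0.0279 for Met, 3.13 ± 0.0878 for gce and 3.37 ± 0.345 for Kr-h1 (SD, n = 3 each). In an exact two-sided permutation test the difference between Kr-h1 and Met was 0.80 (p = 0.1, Benjamini-Hochberg adjusted p = 0.15 over the 3 pairs). The same exact test gave -0.56 for Met minus gce (p = 0.1, adjusted p = 0.15) and 0.24 for Kr-h1 minus gce (p = 0.4, adjusted p = 0.4). With 3 replicates against 3 the smallest p that this test allows is 0.1 and so no lower p could be reached. The same 3 libraries stand on both sides of each difference, which this test does not use. With the replicate as a block, an exact sign-flip permutation test within libraries gave adjusted p = 0.375 for Kr-h1 against Met and for Met against gce, and 0.5 for Kr-h1 against gce, where 0.25 is the smallest unadjusted p that 3 pairs allow. Met ranked above both other genes in 3 of 3 replicates, and gce above Kr-h1 in 2 of 3.

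Within the gene spans alone Met moved from first to last, while the values of Kr-h1 and gce overlapped. The best ranks were 5700, 2303 and 1078 for Kr-h1, 2417, 3142 and 3811 for gce, and 18495, 8436 and 12138 for Met, whose mean log10 rank was 4.09 ± 0.171 (SD, n = 3). Here the sites differed between replicates for gce and Met. For gce the site was 15298568 in replicate 1 and the 5′ UTR exon summit in replicates 2 and 3. For Met it was in the 3′ UTR in replicate 1 and at separate places in the 5′ UTR in replicates 2 and 3. The exact permutation test then gave a difference of -0.71 for Kr-h1 minus Met (p = 0.1, adjusted p = 0.15), 0.61 for Met minus gce (p = 0.1, adjusted p = 0.15) and -0.10 for Kr-h1 minus gce (p = 0.7, adjusted p = 0.7). Every replicate ranked Met last by its best rank in the span. However, Met had the shortest span, 5157 bp against 13896 bp for Kr-h1 and 21309 bp for gce. The best was taken over 2, 2 and 3 relaxed summits of Met in replicates 1, 2 and 3. For Kr-h1 these were 8, 4 and 7 and for gce 13, 14 and 14, and no allowance was made for length. Set beside all genes, a best signal in the 5 kb window at least as high as that of Kr-h1 was found at 28.0% of protein-coding genes, as that of Met at 6.64% and as that of gce at 19.0%.

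Sequence words around the 15 summits were few. Those searched, on both strands within 50 bases of each summit, began with AACAAAG, a word that Sox HMG boxes bind, and the form AACAATG of it. The shorter words inside these, ACAAAG without the first base and in the same way ACAATG, were counted as well. Further words were the E-box, CACGTG, and the E-box-like CACGCG, a core of some juvenile hormone response elements. Neither was tested as a response element here. A nuclear receptor site was searched as AGGTCA, the DNA replication-related element as TATCGATA and the GAGA factor's word as GAGAGAG. The Sox word ACAAAG was present at 2 of the 15 (13.3%), against 11.8% of all optimal summits and 10.4% of the other pooled summits, and both also had the longer AACAAAG, against 6.39% and 4.81%. These summits were the one upstream of CG9175, which held ACAAAG on each strand as printed above, and the one in the 5′ UTR exon of gce, where AACAAAG ended 21 bases before the summit. Neither Sox word with ATG at its end was found in any of the 15 windows. Over all optimal summits, ACAATG was present at 6.46% and AACAATG at 2.51%. Either ACAAAG or ACAATG was at 2 of the 15 (13.3%), against 17.4% of all optimal and 16.4% of other pooled summits.

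The other words each occurred at most once. CACGTG lay 44 to 39 bases before the Kr-h1 intron summit, a word held by 0.902% of all optimal summits. AGGTCA was found on the minus strand in the 6 bases before the summit upstream of CG9175, against 2.02% of optimal summits. TATCGATA was present 26 to 19 bases before the summit at the CG9175 start, against 1.73%. CACGCG and GAGAGAG were not found, against 1.75% and 2.57%. None of these words was in the windows at the first Kr-h1 start, in Ptp10D or in Top1.

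Other genes of the juvenile hormone pathway were counted in the same way. Of a list of 18 genes for synthesis, clearance, receptor partners and response, 15 (83.3%) had an optimal summit in their window, against 60.7% of all protein-coding genes, with a median of 2 per gene against 1. In the span alone 8 of the 18 had one, against 18.6% of all genes. Among these 8 were the long genes tai, br and Eip93F, with spans of 83434, 89738 and 65426 bp. The others among them had spans from 2479 bp (Jheh2) to 8100 bp (Chd64). No allowance was made for gene length in these shares. For 11 the gene's own start was the nearest to at least 1 optimal summit, at any distance, against 32.6% of all genes. The genes jhamt, for the methyltransferase of a last step of synthesis, Jhedup, an esterase gene, and Fkbp39, for a protein that binds juvenile hormone response elements, had no summit in their windows in either the optimal or the pooled list.

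An optimal summit was nearest to the gene's own start for 1 of 3 synthesis genes and 2 of 5 clearance genes. Among the synthesis genes 2 had a summit in the window. At Hmgs, for HMG-CoA synthase, it was 403 bp from the gene's own start with a signal of 212.8. The summit at Fpps, for farnesyl diphosphate synthase, with a signal of 160.9, was nearest to CG7745. Among 5 clearance genes 4 had one, but the epoxide hydrolase genes Jheh1, Jheh2 and Jheh3 are neighbours and share their strongest summit, with a signal of 178.6, 452 bp from the Jheh1 start. The strongest in the window of the esterase gene Jhe, with a signal of 119.9, was nearest to spin.

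Among 5 genes for receptor partners 4 had a summit, and at 3 of these the strongest was nearest to the gene's own start. The long gene tai, for the coactivator Taiman, had 15 optimal summits in its window, the strongest 1720 bp from its start with a signal of 324.1. Hsp83, for the chaperone that assists the receptors, had a signal of 574.1 at 1047 bp, and usp, for the partner of the ecdysone receptor, had 310.9 at 150 bp. At Chd64, for a protein that binds juvenile hormone response elements, the strongest, 124.0, was nearest to Ack. All 5 response genes had at least 1 optimal summit. Eip93F, which Kr-h1 represses, had 7, and the strongest in its window was 60 bp from its start with a signal of 262.3 but ranked 14376, 886 and 1696 in replicates 1, 2 and 3, weakest in replicate 1 as at the Kr-h1 intron. Without a limit on distance 10 optimal summits were nearest to the Eip93F start, and the strongest of them, outside the window, had a signal of 477.0.

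The other response genes varied in which start was nearest. The amino acid transporter gene mnd had a signal of 377.4 at 434 bp from its own start. At br, the determinant of the pupal stage, there were 7 summits, the strongest with 281.4 nearest to Mur2B and the strongest near its own start with 123.3. The strongest in the window of RNaseZ, also known as JhI-1, had 222.4 and was nearest to CAP, and that of JhI-26 had 310.4 and was nearest to Atg9. The plot of the strongest summit by gene sets these beside Met, gce and the rest of their family.

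**Figure D4:**
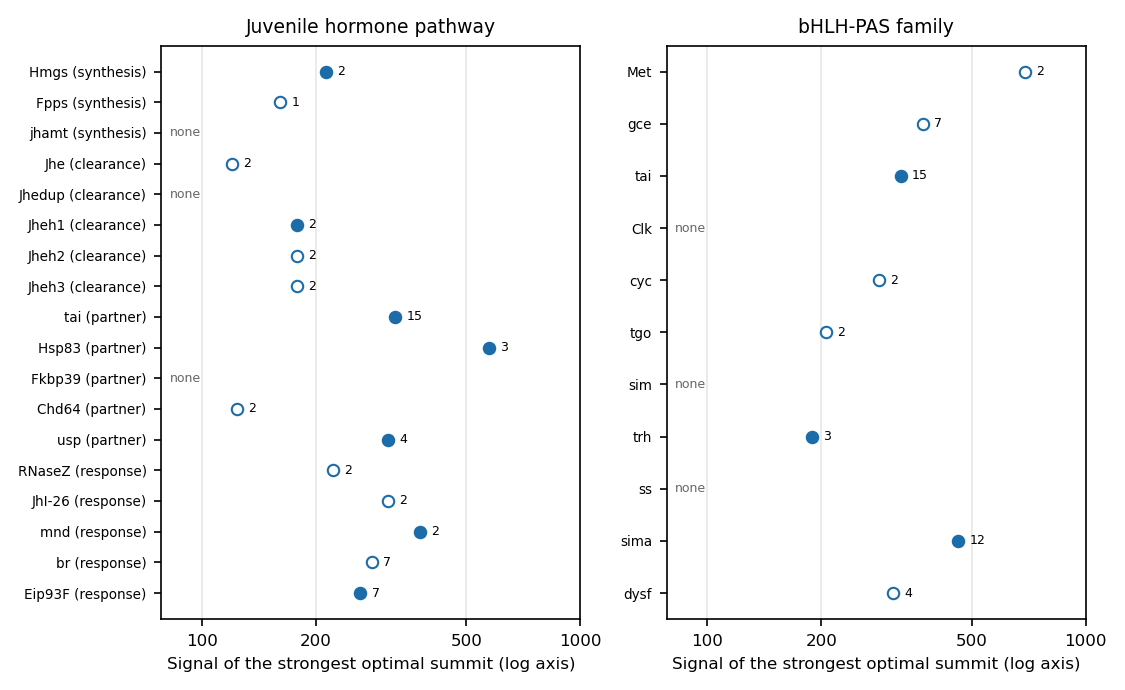
Signal of the strongest optimal summit in the window (horizontal axis, log scale) for the genes of the juvenile hormone pathway list (left) and the bHLH-PAS list (right), with filled points where the nearest protein-coding start to that summit is the gene's own and the number of optimal summits beside each, or none. Met at 691.6 and gce at 372.4 are open points because the starts of Ptp10D and Top1 are nearer, while tai at 324.1 and sima at 461.1 are filled.

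Within the bHLH-PAS family, 8 of 11 genes (72.7%), Met and gce among them, had an optimal summit in their window, against 60.7% of all genes, and 5 had one in their span, against 18.6%. These shares make no allowance for gene length. Those 5 were long, with spans of 21309 bp (gce), 22120 bp (dysf), 26110 bp (trh), 63488 bp (sima) and 83434 bp (tai). The median window over all genes, flanks included, was 12166 bp. However, sim and ss, with spans of 20370 and 29257 bp, had none. At sima, the hypoxia-inducible factor gene, with 12 summits, and trh, a tracheal regulator, with 3, the strongest summit was nearest to the gene's own start. It had a signal of 461.1 at sima and 188.6 at trh, and the same held for tai. Without a limit on distance, 10 optimal summits were nearest to the start of sima, 9 to tai, 3 to trh, 2 to gce, 2 to dysf and 1 to Clk. The strongest in the windows of the clock gene cyc, with 284.5, of tgo, the common partner gene of the family, with 206.0, and of dysf, with 309.8, were nearest to Fibp, Kcmf1 and CG14551, as those of Met and gce were nearest to other genes. The windows of Clk, sim and ss, for the clock, midline and antennal regulators, held no optimal summit.

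By number of optimal summits and strongest signal, the genes most like the members were outside both lists. Of 204 other genes with 6 summits, CG2747 and Arf1 came closest to Kr-h1, with strongest signals of 272.5 and 272.1. Of 2198 with 2 summits, CG15336 and CG5515 came closest to Met, with 688.3 and 686.6, and of 102 with 7, RhoGEF64C and dj-1beta came closest to gce, with 374.7 and 376.0. The measure of likeness was the difference in log2 signal within the pooled optimal list, which is 1 value per gene without replicates.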

How the data were processed

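Peak lists from 3 biological replicates of anti-GFP ChIP-seq (the labels' antibody field names Sox14, their description an anti-GFP antibody) were analysed on dm6. For each replicate and for the pooled replicates the authors deposited 30000 relaxed peaks, named as peaks and background for the irreproducible discovery rate (IDR), and an IDR-thresholded optimal list of 9316 peaks from the pool, each with a position, a signal value, a −log10 q value and a summit offset. Aligner, peak caller and threshold: not given in the sources used here. The deposited signal values have no stated scale, so peaks were ranked by signal within each list. The optimal peaks were the 9316 strongest of the pooled list. The highest deposited −log10 q value in the pooled list was 4.265, and 2 was the limit for q under 0.01. The dm3 lists were not used here.

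Summits (start plus offset, counted from 1) were assigned to Ensembl release 115 genes (BDGP6.54) by span plus 5 kb. Summits within 100 bp were taken as shared, and 500 bp as near a start. Sequences came from RefSeq, with words counted within 50 bases of the summit. Computation used Python 3.11.15 and NumPy 2.4.6, with functions tested on simulated data. Best ranks (log10) were compared by exact permutation over 20 regroupings, with sign flips within libraries as an alternative added after seeing the data, and such p-values measure only the spread between these replicates. The members, lists and words were chosen with earlier results of these data known. Named were the members, the listed genes, those with the nearest start to a summit in a member's window, and the 2 genes most like each member. One gene of the juvenile hormone list is not reported here and was left out of its counts. In the lists, JhI-1 and dys were matched as RNaseZ and dysf through the RefSeq gene table. Other window sizes, overlap distances, q limits, word windows and leaving out each replicate were tried.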

Additional observations from a re-analysis of the deposited data

How the results depend on the processing

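Of 81 alternative values, 26 counts moved by over 1.5 times and 3 differences in rank reversed. The other 52 were counts within 1.5 times the reported one or differences in the same direction. With 2 kb on each side the optimal counts were 2 for Kr-h1 and 1 for Met, and with the span alone 1 and 0, while 10 kb left all 3 genes' counts at 6, 2 and 7. Among the optimal peaks above that list's median signal they were 3 for Kr-h1, 1 for Met and 3 for gce. By the nearest protein-coding start, a choice made after seeing the data, they were 3, 0 and 2. Pooled relaxed counts fell to 10 for Kr-h1 and 5 for Met with 2 kb, to 8, 3 and 13 for Kr-h1, Met and gce with the span alone, and to 9 for Kr-h1 and 5 for Met at q under 0.01. Optimal summits found in every replicate were 3 for Kr-h1 and 3 for gce within 50 bp, 2 for Met within 200 bp, and 2 for gce among the top peaks of each replicate. In replicate 1 both Met summits were then matched to the same strong summit, 14 and 189 bp away, so the 2nd was not found separately. Leaving out 1 replicate gave 5 to 6 for Kr-h1, 1 to 2 for Met, with 2 without replicate 1, and 5 to 6 for gce. With the span alone, juvenile hormone genes with a summit numbered 8 and bHLH-PAS genes 5. In 51 bp windows AACAAAG and ACAAAG were each at 1 summit. The differences in best log10 rank reversed with the span alone, without allowance for span length, to -0.71 for Kr-h1 minus Met, -0.10 for Kr-h1 minus gce and 0.61 for Met minus gce, since the strongest summits of Met and gce lie outside their spans. Leaving out 1 replicate they ranged from 0.61 to 0.98, 0.06 to 0.46 and -0.60 to -0.52 with the 5 kb windows, Kr-h1 minus gce being 0.06 without replicate 1 and 0.46 without replicate 3. Pairing the genes within libraries (replicate block, added after seeing the data) left the differences at 0.80, 0.24 and -0.56, with adjusted p of 0.375, 0.5 and 0.375 by an exact sign-flip permutation test. The counts come from 1 group and have no pairs. Without read counts, a summit missing from a list says nothing about binding below that list's limit, and without a control library, signal that does not depend on the tagged protein was not measured here.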
